A study of Mus musculus with 32 samples.

Results

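The immediate early and heat shock genes followed here are 10 mouse genes: Fos, Fosb, Jun, Junb, Egr1, Ier2, Dusp1, Atf3, Hspa1a and Hspa1b. They were chosen by symbol, and each was read from the probe sets annotated to that symbol alone. The array holds 13 such probe sets, and where a gene had several, the one with the highest mean led. They are 10 of 18194 genes with a probe set of a single symbol. Of the 10, 7 (Fos, Jun, Junb, Egr1, Ier2, Dusp1 and Hspa1b) were bright enough to be tested among 11228 genes, and 3 (Fosb, Atf3 and Hspa1a) had a mean below the cut-off for dim genes, 5.78.

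Expression was measured with Affymetrix Mouse430_2 arrays in 32 lymphomas that arose in Eµ-myc transgenic mice, 1 array per tumour, and tumours are named by the number in their labels, 1 to 32. In this mouse line the Myc oncogene is driven by the Eµ enhancer of the immunoglobulin heavy chain, so that tumours form in the B lineage. All 32 carry the transgene and form a single group, with no treatment and no normal tissue or untransformed cells analysed here. The labels name neither age nor strain background, nor whether a given tumour's RNA came from frozen tissue or from a pellet of dissociated cells, both of which were in use, and whether these genes differ between the 2 preparations was not tested. The values are log2 levels, normalised by the authors with RMA. Because nothing in the labels says more about each animal, p-values measure the spread between these 32 arrays only.

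Immediate early genes are transcribed within minutes of a signal, without new protein synthesis, because their regulators (among them serum response factor and CREB) are already present and are switched on by MAP kinases. Most encode short-lived transcription factors or proteins that shut the same kinases off again. The inducible Hsp70 genes respond instead to unfolded protein through heat shock factor. In lymphocytes the first class is known as a mark of recent antigen receptor or cytokine signalling, and the Hsp70 class as a mark of protein stress.

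Upstream sequence is shown for a kinase-responsive pair, Fos and Dusp1, and for the Hsp70 pair, because the results below turn on how these genes moved together or apart. The sequences are the 250 bases before the annotated start, from RefSeq on GRCm38.p6, 5′ to 3′ on the strand of the gene. Windows were read for 8 of the 10 genes. Egr1 and Ier2 had none here and are named only, which does not mean that RefSeq lacks them. Capitals mark the CREB core TGACGT and the TATA box TATAAA in Fos, the CREB core (which reads TGACGTCA where it overlaps itself on both strands) in Dusp1, and the paired heat shock unit GAANNTTC in both Hsp70 genes.
Fos: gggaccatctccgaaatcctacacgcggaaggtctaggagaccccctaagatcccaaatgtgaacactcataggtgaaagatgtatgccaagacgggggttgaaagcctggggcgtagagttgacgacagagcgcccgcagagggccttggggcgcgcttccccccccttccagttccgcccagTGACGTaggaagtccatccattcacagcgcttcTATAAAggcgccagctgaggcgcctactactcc
Dusp1: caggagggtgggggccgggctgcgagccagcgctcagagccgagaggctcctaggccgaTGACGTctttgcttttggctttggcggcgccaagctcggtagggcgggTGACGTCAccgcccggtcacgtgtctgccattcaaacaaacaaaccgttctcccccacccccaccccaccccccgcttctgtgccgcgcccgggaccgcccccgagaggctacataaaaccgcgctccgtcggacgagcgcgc
Hspa1a: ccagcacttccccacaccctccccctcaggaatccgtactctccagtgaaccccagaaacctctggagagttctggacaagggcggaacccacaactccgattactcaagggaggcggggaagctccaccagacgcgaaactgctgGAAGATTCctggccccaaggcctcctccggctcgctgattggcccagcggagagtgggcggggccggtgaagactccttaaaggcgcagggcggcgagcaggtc
Hspa1b: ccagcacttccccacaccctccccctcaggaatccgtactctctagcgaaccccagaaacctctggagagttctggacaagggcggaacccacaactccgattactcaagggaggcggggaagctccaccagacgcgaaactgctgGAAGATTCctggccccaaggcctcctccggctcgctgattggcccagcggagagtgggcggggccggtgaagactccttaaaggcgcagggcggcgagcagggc

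The Fos window is chr12:85473640-85473889 on the plus strand. The other windows lie on the minus strand, at chr17:26508473-26508722 for Dusp1, chr17:34972157-34972406 for Hspa1a and chr17:34959239-34959488 for Hspa1b. In Fos the CREB core began at -66 and the TATA box at -33, counted back from the start. Dusp1 had 3 matches to the CREB core, the first at -191 and the others overlapping from -143. Both strands were searched, and 6.47% of 32851 RefSeq promoter windows of the same length held the CREB core. The heat shock unit stood at -104 in Hspa1a and Hspa1b and was present in 6.69% of all windows, and TATAAA in 12.4%. The Hspa1a and Hspa1b windows differed at 3 of 250 bases, an identity of 98.8%. The AP-1 site TGANTCA (6.75%) and the CArG box (1.47%) were searched as well and had no match in these 4 windows. The same holds for the longer heat shock element, GAANNTTC followed directly by NNGAA, which 0.466% of all windows held. Sites farther upstream than 250 bases, or with letters other than those searched, were not looked for. No match here therefore does not mean that a gene lacks the site. Among the windows not shown, that of Jun had GAANNTTC once, at -128, and that of Atf3 had the CREB core once, at -8. The Fosb and Junb windows had no match to any of these motifs.

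The array medians lay between 5.72 and 5.80, no arrays were identical, and the 9 hybridisation control probe sets had an SD of 0.0923 to 0.199 over the arrays. The B cell receptor chains Cd79a (9.37 lowest, 11.1 median, 11.6 highest) and Cd79b (11.1, 12.1 and 12.6) were bright in every tumour. In 11 tumours (3, 4, 9, 12, 15, 16, 18, 20, 25, 29 and 30) transcripts of the salivary gland stood far above their level in the other 21, with the secreted salivary protein Bpifa2 at 12.97 to 14.26 against 3.59 to 5.19. Member pairs are therefore also given within each of these sets, as are score calls, and counts over lists of genes in the 21 tumours. In such bulk samples, fewer cells of a type and less RNA per cell cannot be told apart.

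The 7 tested genes varied more over the tumours than most genes on the array. Their median SD was 0.740 on the log2 scale, against 0.281 over all genes tested. The SD exceeded that of 98.7% of genes for Egr1, 96.6% for Hspa1b, 95.4% for Dusp1, 92.0% for Fos and 89.1% for Jun. Ier2 (76.8%) and Junb (69.1%) were the steadiest. Probe sets differ in brightness for reasons of design, so no level is set here against another gene's.

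**Figure D1:**
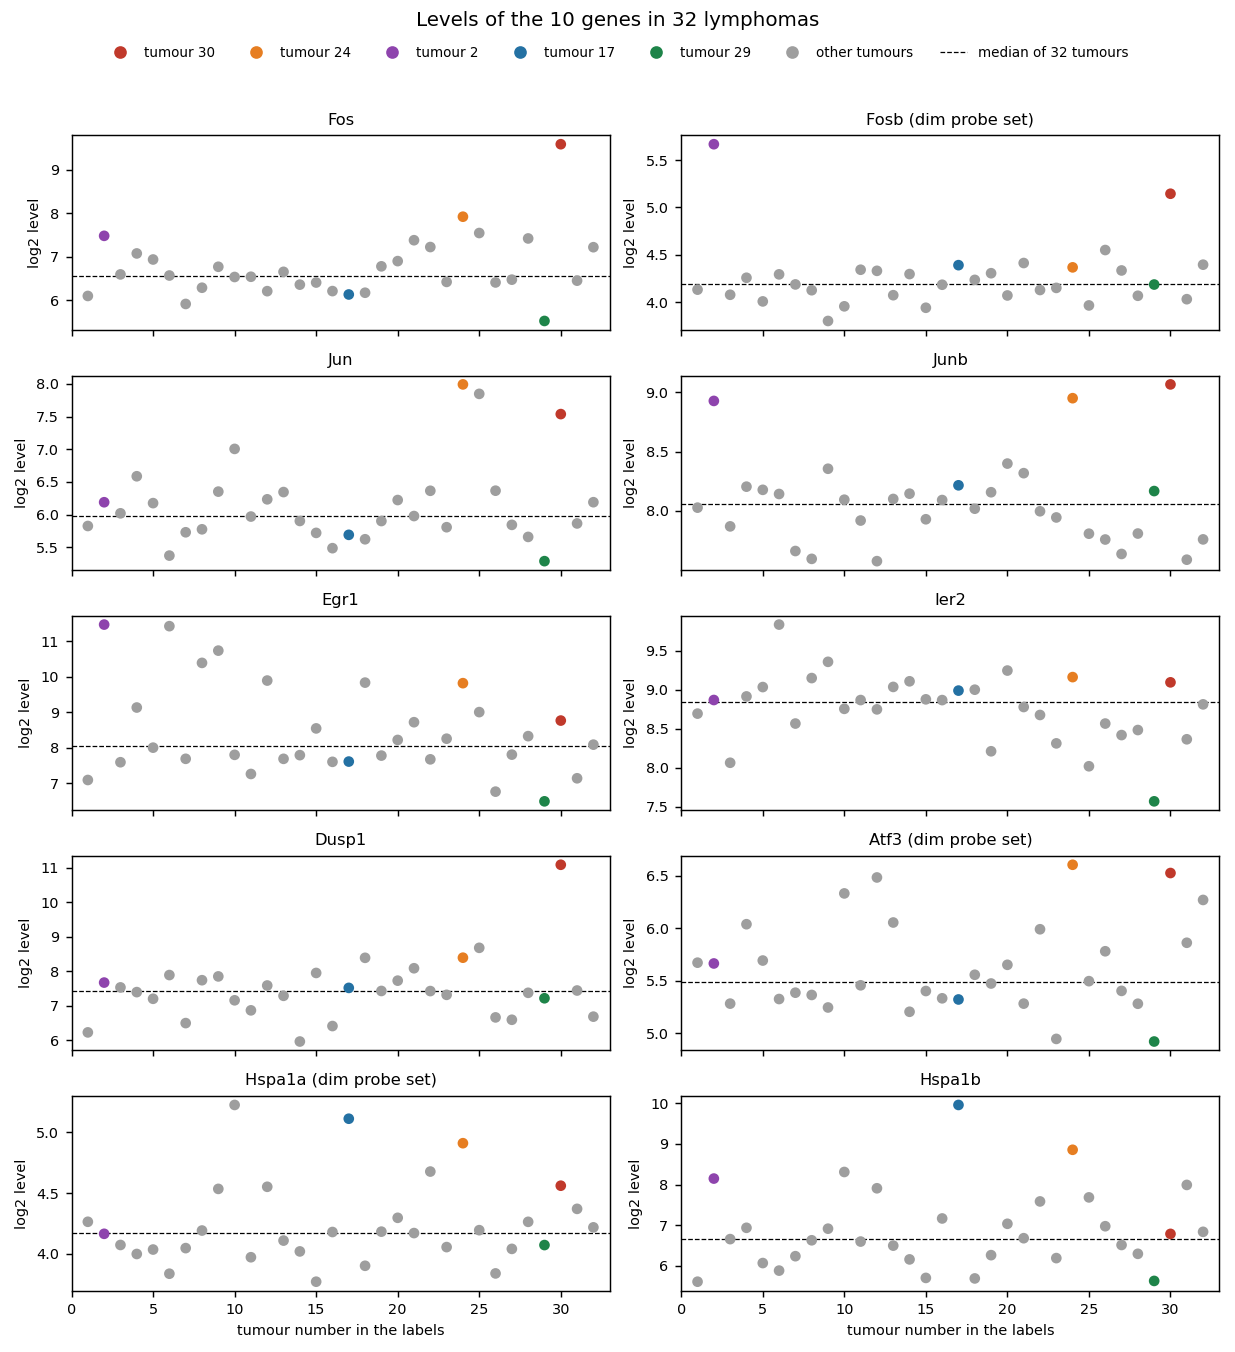
Log2 level (vertical axis) of each of the 10 genes in the 32 tumours (horizontal axis, number in the labels), with tumours 30, 24, 2, 17 and 29 coloured and the median dashed. Tumour 30 stands apart at 11.08 for Dusp1 and 9.59 for Fos, tumour 17 at 9.95 for Hspa1b, and tumour 29 is lowest for Fos, Jun, Egr1, Ier2 and Atf3.

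Fos, the inducible partner of Jun in the AP-1 transcription factor, ranged from 5.52 in tumour 29 through a median of 6.55 to 9.59 in tumour 30 (SD 0.740, n = 32). Tumours 24 (7.92) and 25 (7.54) followed well below tumour 30. The middle 50% of tumours spanned 6.34 to 7.11, and the whole range of 4.06 corresponded to 16.7-fold. Fosb, a Fos paralogue, was dim, with 3.80 lowest, 4.19 median and 5.67 highest. Tumours 2 (5.67) and 30 (5.14) stood above the third highest, 26 (4.55).

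Jun, the partner of Fos in AP-1, ranged from 5.29 in tumour 29 through 5.97 to 7.99 in tumour 24 (SD 0.646), with tumours 25 (7.85) and 30 (7.54) next. These 3 tumours stood above the remaining 29, of which the highest reached 7.0. The second Jun probe set was dimmer, and its level followed the first with r = 0.955 over the 32 tumours. Junb, a Jun family member known to restrain Jun-driven transcription, ranged from 7.58 through 8.06 to 9.07 (SD 0.374). It was the single gene of the 10 whose tumours fell into separate sets: tumours 2 (8.93), 24 (8.95) and 30 (9.07) lay above a gap, and the other 29 reached at most 8.4. For this reason no r over all 32 tumours is given for Junb.

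Egr1, a zinc finger transcription factor, had the widest SD of the 10 (1.29) and ranged from 6.49 in tumour 29 through 8.04 to 11.46 in tumour 2. Tumours 6 (11.42), 9 (10.73) and 8 (10.38) were almost as high, and of these tumours 6 and 9 ranked only 16 and 13 for Fos. Ier2, a short-lived nuclear protein of the same response, ranged from 7.57 in tumour 29 through 8.84 to 9.84 in tumour 6 (SD 0.441), and tumour 9 (9.36) was second.

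Dusp1, the phosphatase that inactivates MAP kinases, ranged from 5.96 in tumour 14 through 7.42 to 11.08 in tumour 30 (SD 0.915). The second highest, tumour 25, reached 8.68, so tumour 30 alone made up much of the 34.8-fold range. Atf3, a stress-induced relative of CREB, was dim and ranged from 4.92 in tumour 29 through 5.48 to 6.61 in tumour 24, with tumours 30 (6.53) and 12 (6.49) close to it.

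Hspa1b, one of a pair of genes for inducible Hsp70, ranged from 5.61 in tumour 1 through 6.67 to 9.95 in tumour 17 (SD 0.996, a 20.3-fold range). Tumours 24 (8.85), 10 (8.31) and 2 (8.15) followed. Its other probe sets tracked the leading one with r = 0.981 and 0.992 over the 32 tumours. Hspa1a was dim, from 3.77 through 4.18 to 5.23, and its highest tumours were 10 (5.23), 17 (5.11) and 24 (4.91). The 2 genes are near-identical copies that lie close together on chromosome 17 (GRCm38.p6, 34969359 to 34972156 for Hspa1a and 34956429 to 34959238 for Hspa1b), so which copy a probe set reports is uncertain.

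Few tumours were high or low for all of the genes at once. Tumour 24 was among the 3 highest for 5 of the 7 tested genes and tumour 30 for 4, while tumour 29 was among the 3 lowest for 5. Tumour 30, first for Fos, Junb and Dusp1, ranked only 10 for Egr1 and 15 for Hspa1b. Tumour 17, first for Hspa1b, ranked 29 for Fos and 27 for Jun. Tumour 25, second for Jun and Dusp1, ranked 31 for Ier2.

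How far the genes moved together was tested by fitting every gene to the level of each tested member with limma, with Benjamini-Hochberg adjustment over all genes. A member pair was counted only where each gene passed an adjusted p of 0.05 on the level of the other. Of 21 pairs, 7 passed: Fos with Jun, Dusp1 and Junb, Dusp1 with Jun, Junb and Egr1, and Egr1 with Ier2. All 15 pairs without Junb had a positive r over the 32 tumours, 0.0671 to 0.725 with a median of 0.219. The 6 pairs with Junb ran from -0.0512 (Hspa1b) to 0.335 (Ier2) over the 29 tumours below its gap, and 4 of them were positive. On the level of Fos 3 of the 6 other members rose, against 6.78% of all genes tested. The counts were 4 of 6 on Dusp1 (10.7% of all genes), 3 of 6 on Junb (10%), 2 of 6 on Jun (5.96%), 2 of 6 on Egr1 (9.25%), 1 of 6 on Ier2 (1.46%) and 0 of 6 on Hspa1b (0%). No member fell on any of these levels, where 7.48% of all genes fell on Fos, 17.9% on Dusp1, 11.4% on Junb, 2.92% on Jun, 11.8% on Egr1, 1.56% on Ier2 and 0% on Hspa1b.

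**Figure D2:**
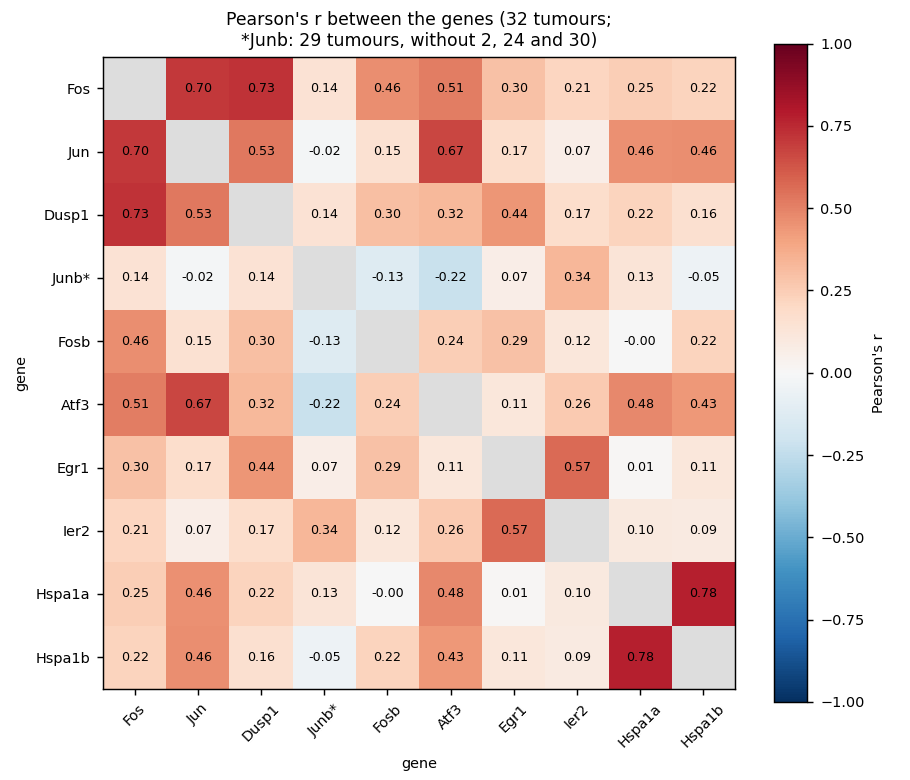
Pearson's r between the 10 genes over the 32 tumours (both axes, genes; colour, r), with the Junb row and column over 29 tumours. Fos, Jun and Dusp1 are joined by r of 0.528 to 0.725, and Egr1 is nearest to Ier2 (0.569). The highest r (0.777) is that of Hspa1a and Hspa1b, near-identical copies whose probe sets may not tell them apart.

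Fos and Jun were the one pair of the 7 that passed with any single tumour left out. Their r was 0.705 (permutation p = 6e-05) and Spearman's rho 0.633 (permutation p = 0.00019), with a limma adjusted p of 0.00101 for Jun on the level of Fos. Without the 2 tumours farthest from the Fos median, 30 and 24, r was 0.551. It was 0.835 in the 11 tumours with salivary transcripts (permutation p = 0.0009) and 0.534 in the 21 without them (permutation p = 0.0114). Tumours 24, 25 and 30 were the 3 highest for both genes, so leaving out 1 tumour kept part of this set. Without tumours 2, 24 and 30 r was 0.565 (n = 29, permutation p = 0.00117), and 0.344 when 25 and 29 were left out as well. In the 21 tumours r was 0.208 without tumours 24 and 2, and in the 11 it was 0.898 without 30 and 29.

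Fos and Dusp1 had r = 0.725 (permutation p = 0.00025) but rho of only 0.434 (permutation p = 0.0136), and limma gave an adjusted p of 0.000703 for Dusp1 on the level of Fos. This pair leaned on tumour 30: without it r was 0.449 and the adjusted p 0.103. Within the 11 salivary tumours r was 0.868 (permutation p = 0.00732), with tumour 30 among them, and within the other 21 it was 0.576 (permutation p = 0.00684). Jun and Dusp1 had r = 0.528 (permutation p = 0.00429), rho = 0.212 (permutation p = 0.242) and a limma adjusted p of 0.0237 for Dusp1 on the level of Jun. Without tumour 30, 24 or 25 the Jun and Dusp1 pair no longer passed (adjusted p 0.154, 0.0592 and 0.0510), and its r was 0.697 in the 11 salivary tumours (permutation p = 0.0177) and 0.294 in the other 21 (permutation p = 0.198).

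The Junb pairs rested on the 3 tumours above the gap. With Fos, Junb rose by 0.23 ± 0.05 (SE) log2 units per SD of Fos over all 32 tumours, with a limma adjusted p of 0.00478. Within the other 29 tumours, r of Fos and Junb was 0.141 (permutation p = 0.467, rho 0.191, permutation p = 0.320) and that of Junb and Dusp1 was 0.145 (permutation p = 0.454, rho 0.131, permutation p = 0.496). Each of these pairs also missed the threshold when tumour 30 alone was left out (adjusted p 0.104 and 0.243).

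Egr1 passed with Ier2 and Dusp1 but not with Fos or Jun (limma adjusted p 0.238 and 0.553 for Egr1 on their levels). Fos and Egr1 had r = 0.295 (permutation p = 0.101) and a higher rho of 0.4065 (permutation p = 0.022). Their rho was 0.513 in the 21 tumours without salivary transcripts (permutation p = 0.0192) and 0.173 in the other 11 (permutation p = 0.614). Jun and Egr1 had rho = 0.1815 (permutation p = 0.321). Whether these relations differ from one another was not tested. Egr1 and Ier2 had r = 0.569 (permutation p = 0.00062) and rho = 0.507 (permutation p = 0.00336), with a limma adjusted p of 0.00638 for Ier2 on the level of Egr1 and 0.0322 the other way. Without tumours 2 and 6 r was 0.503. The pair missed the threshold without tumour 6, 9 or 29 (adjusted p 0.144, 0.0589 and 0.107), although r was 0.635 in the 11 salivary tumours (permutation p = 0.0352) and 0.597 in the other 21 (permutation p = 0.00487).

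Egr1 and Dusp1 had r = 0.441 (permutation p = 0.0122) and a higher rho of 0.665 (permutation p = 7e-05). The limma adjusted p of 0.0444 lay close to the threshold and exceeded it in 16 of the 32 fits that left out a tumour. Without tumours 2, 24 and 30, r was 0.585 (n = 29, permutation p = 0.00102). It was 0.272 in the 11 salivary tumours (permutation p = 0.417) and 0.609 in the other 21 (permutation p = 0.00310).

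**Figure D3:**
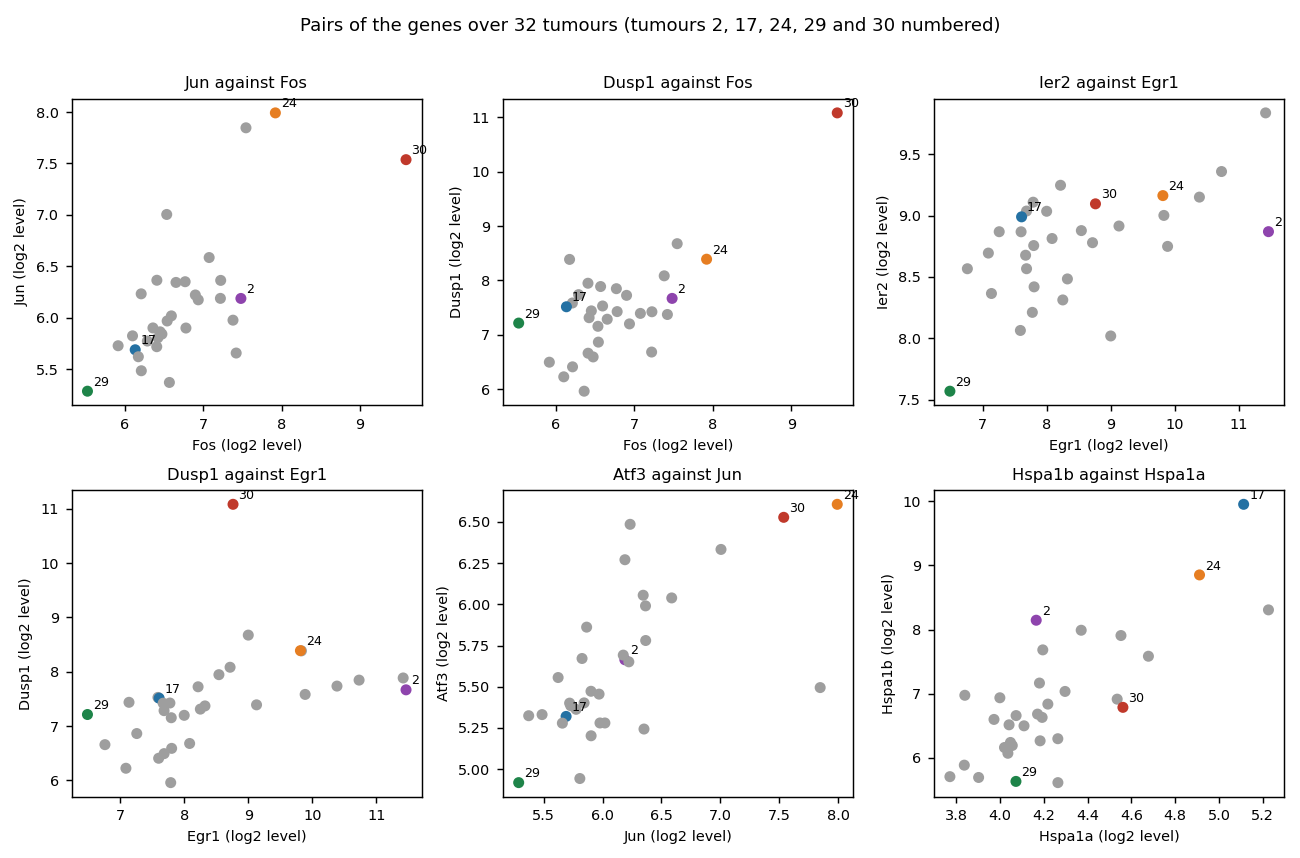
Log2 levels of 6 pairs of the genes, 1 point per tumour (axes, log2 level of the named gene), with tumours 2, 17, 24, 29 and 30 numbered. Tumour 30 lies alone at the upper right for Fos and Dusp1, at 9.59 and 11.08, and tumour 17 at the top for Hspa1a and Hspa1b, at 5.11 and 9.95.

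Of the dim genes, Atf3 and Hspa1a each had a tested gene that passed on their level, and Fosb did not. With dim genes included in limma, Atf3 passed on Fos (adjusted p 0.0345) but Fos did not on Atf3 (0.163). Fosb passed on Junb (0.0116) but Junb did not on Fosb (0.0539). In the 29 tumours below the Junb gap, r of Fosb and Junb was -0.132 (permutation p = 0.494). Atf3 and Jun had r = 0.671 (permutation p = 5e-05) and rho = 0.667 (permutation p = 6e-05), and r was 0.764 without tumours 24 and 25. Along Atf3, 1 of the 7 tested members rose, Jun, against 0.65% of all genes, with a limma adjusted p of 0.00718, and none fell, against 0.0178%. Hspa1a and Hspa1b had r = 0.777 (permutation p = 1e-05, the smallest that the resamples can give) and rho = 0.639 (permutation p = 0.00013), and r was 0.671 without tumours 10 and 17. Along Hspa1a, 1 of 7 members rose, Hspa1b, against 0.00891% of all genes, since no other gene passed (adjusted p 0.000705). Whether the probe sets of these near-identical copies report the same transcripts was not tested. Along Fosb, 0 of 7 members passed in limma, against 0.721% of all genes rising and 0.383% falling, and 2 of them had an unadjusted p under 0.05. The r of Fosb and Fos was 0.464 (permutation p = 0.0271) and rho 0.0839 (permutation p = 0.644), and without tumours 30 and 24 r was 0.211.

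Between the classes, Hspa1b was nearest to Jun. Their r was 0.464 (permutation p = 0.00889) and rho 0.576 (permutation p = 0.00061), but limma gave an adjusted p of 0.139 for Jun on the level of Hspa1b, and the pair did not pass. Without tumour 17, which had the highest Hspa1b and one of the lower Jun levels, r was 0.655 and the adjusted p 0.00793. Hspa1b missed the threshold with Fos (limma adjusted p 0.405) and with Dusp1 (0.529). The rho of Fos and Hspa1b was 0.357 (permutation p = 0.0451), and that of Dusp1 and Hspa1b was 0.229 (permutation p = 0.205).

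No gene at all passed on the level of Hspa1b over the 32 tumours with limma, although 1820 of 11227 had an unadjusted p under 0.05, and the lowest adjusted p was 0.0530. Leaving out tumour 17 alone gave 512 genes, of which 324 rose (2.89% of all genes) and 188 fell (1.67%). Of the 6 other members, 1 had an unadjusted p under 0.05 over the 32 tumours, Jun, and Jun was also the 1 of 6 called without tumour 17. Of 35 other immediate early genes 3 rose, and of 19 other heat shock genes 1 rose, the Hsp110 family chaperone Hspa4l (adjusted p 0.0387). The MAP kinase kinase Map2k1 (adjusted p 0.0472) and the stress-induced regulator of mTORC1 Sesn2 (adjusted p 0.0109) also rose. In the same fit 3 of 6 T cell markers rose.

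A list of other heat shock genes was read beside Hspa1b, 19 of them tested. Over the 32 tumours 0 of 19 passed with limma, and 7 had an unadjusted p under 0.05. Their median r with Hspa1b was 0.246, against -0.03 over all genes. The highest were Hspa4l (r = 0.612, adjusted p 0.0616), the constitutive Hsp70 Hspa8 (r = 0.612, adjusted p 0.0720) and the Hsp40 Dnaja1 (r = 0.610, adjusted p 0.0616). Tumour 17 had the highest mean level of these 19 genes, 10.7, against a median of 10.3 and a lowest of 9.98 over the tumours. In the fit without tumour 17 their median r was 0.137, against -0.0404 over all genes, and 5 of 19 had an unadjusted p under 0.05. There r was 0.542 for Hspa4l, 0.478 for Dnaja1 and 0.478 for Hspa8. Hspa4l was the 1 of 19 that rose (limma adjusted p 0.0387), against 2.89% of all genes, and Dnaja1 (0.0802) and Hspa8 (0.111) missed. The adjusted p also depends on the other genes, of which 512 passed without tumour 17 and 0 with it, so r is the plainer comparison.

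The same heat shock list was read on Fos and Dusp1. On the level of Fos 5 of 19 fell, against 7.48% of all genes tested, and none rose. They were the Hsp90 co-chaperones Fkbp4 (-0.22 ± 0.05 log2 per SD of Fos, SE, adjusted p 0.00260), Stip1 (-0.17 ± 0.05, adjusted p 0.0303) and Chordc1, and the mitochondrial chaperonin subunits Hspd1 (-0.13 ± 0.04, adjusted p 0.0250) and Hspe1 (-0.10 ± 0.03, adjusted p 0.0394). With Dusp1 10 of 19 fell, against 17.9% of all genes, and none rose, with Hspd1 at -0.20 ± 0.03 (SE, adjusted p 1.5e-05). Without tumour 30 0 of the 19 passed on Fos (1 at an unadjusted p under 0.05), where 0.873% of all genes fell, and 6 fell on Dusp1, against 12.1% of all genes, Hspd1 (adjusted p 0.00271) and Fkbp4 (adjusted p 0.00677) among them. Tumour 30 had a mean level of 9.98 for these 19 genes, near the lowest of all. In the 21 tumours without salivary transcripts 0 of 11227 genes passed on Fos with limma (0% rising and 0% falling), although 2392 had an unadjusted p under 0.05, 1 of the 19 heat shock genes among them. In the same tumours 1 of 19 fell on Dusp1, against 4.93% of all genes, and their median r was -0.09.

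Among 35 other immediate early genes tested, 9 rose and none fell on the level of Fos, against 6.78% and 7.48% of all genes, and their median r was 0.238, against -0.07 over all genes. They were led by the AP-1 subunit Fosl2 (0.55 ± 0.10 log2 per SD of Fos, SE, adjusted p 0.00107), the survival factor Ier3 (0.41 ± 0.08, adjusted p 0.00119), the zinc finger factor Klf6 (0.43 ± 0.08, adjusted p 0.00131) and the NF-kB regulator Nfkbiz (0.40 ± 0.08, adjusted p 0.00174). Klf4, Ccn2, Per1, Rhob and Nr4a1 were the others. Without tumour 30 only 2 of 35 rose, against 2.88% of all genes. With Dusp1 14 of 35 rose and none fell, against 10.7% and 17.9% of all genes. Without tumour 30 the counts on Dusp1 were 11 rising, against 7.96% of all genes, and 3 falling, against 12.1%. In the 21 tumours without salivary transcripts 6 of 35 rose on Dusp1, against 5.69% of all genes, and none fell, and 0 of 35 passed on Fos (10 at an unadjusted p under 0.05). Salivary gland genes, which split the tumours into sets of 11 and 21, also rose with Dusp1 over the 32 tumours. Of these 4 of 8 rose, against 10.7% of all genes, with a median r of 0.413. Within the 21 tumours without salivary transcripts 0 of 8 passed (1 at an unadjusted p under 0.05), against 5.69% of all genes rising and 4.93% falling. There the median r was -0.116, and 2 of 8 had a positive r. Without tumour 30 0 of 8 passed (2 at an unadjusted p under 0.05), and without tumours 2, 24 and 30 0 of 8 (7 at an unadjusted p under 0.05).

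The same 35 genes were read on Egr1. On its level 10 of 35 rose and 1 fell, against 9.25% and 11.8% of all genes tested. The highest were the RNA-binding protein Zfp36l1 (0.39 ± 0.06 log2 per SD of Egr1, SE, adjusted p 9.2e-05), the Egr1 paralogue Egr2 (0.65 ± 0.11, adjusted p 0.000121), the nuclear receptor Nr4a1 (0.30 ± 0.06, adjusted p 0.000363) and the antiproliferative gene Btg1 (0.51 ± 0.10, adjusted p 0.000547). The ERK phosphatase Dusp6 rose by 0.81 ± 0.17 (SE, adjusted p 0.00134). Myc, which the transgene drives in all of these tumours, fell (-0.30 ± 0.07, adjusted p 0.00286). Without tumour 2, which had the highest Egr1, Myc still fell (adjusted p 0.0309), and the counts were 9 rising and 3 falling, against 6.97% and 9.1% of all genes. Without tumour 6 they were 10 rising (8.76% of all genes) and 2 falling (11.8%), and without tumour 30 10 rising (9.83%) and 1 falling (13.1%). With the 11 salivary tumours left out, 8 rose (8.27%) and 1 fell (9.49%). The ERK-regulated factor Elk3 of the upstream regulator list rose with Egr1 (0.69 ± 0.10, adjusted p 3.1e-05), and the CREB relative Crem rose with Fos (0.29 ± 0.06, adjusted p 0.00242). Without tumour 30 Crem missed the threshold (adjusted p 0.0915) and 0 of the 13 genes of that list passed on Fos (2 at an unadjusted p under 0.05). Over the 32 tumours 1 of 13 rose on each of these levels, and 1 fell on Egr1, the p38 kinase Mapk14. A count of 1 of 13 is near the share of all genes, 6.78% rising on Fos and 9.25% rising or 11.8% falling on Egr1.

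Of 10 genes of the Atf4 stress pathway, Sesn2 rose with Fos (limma adjusted p 0.0403) and the serine synthesis enzyme Psat1 fell (adjusted p 0.0286). A count of 1 of 10 in each direction is near the 6.78% of all genes that rose and the 7.48% that fell. Without tumour 30 neither passed (adjusted p 0.0835 for Sesn2 and 0.161 for Psat1), and 0 of 10 were called (2 at an unadjusted p under 0.05).

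**Figure D4:**
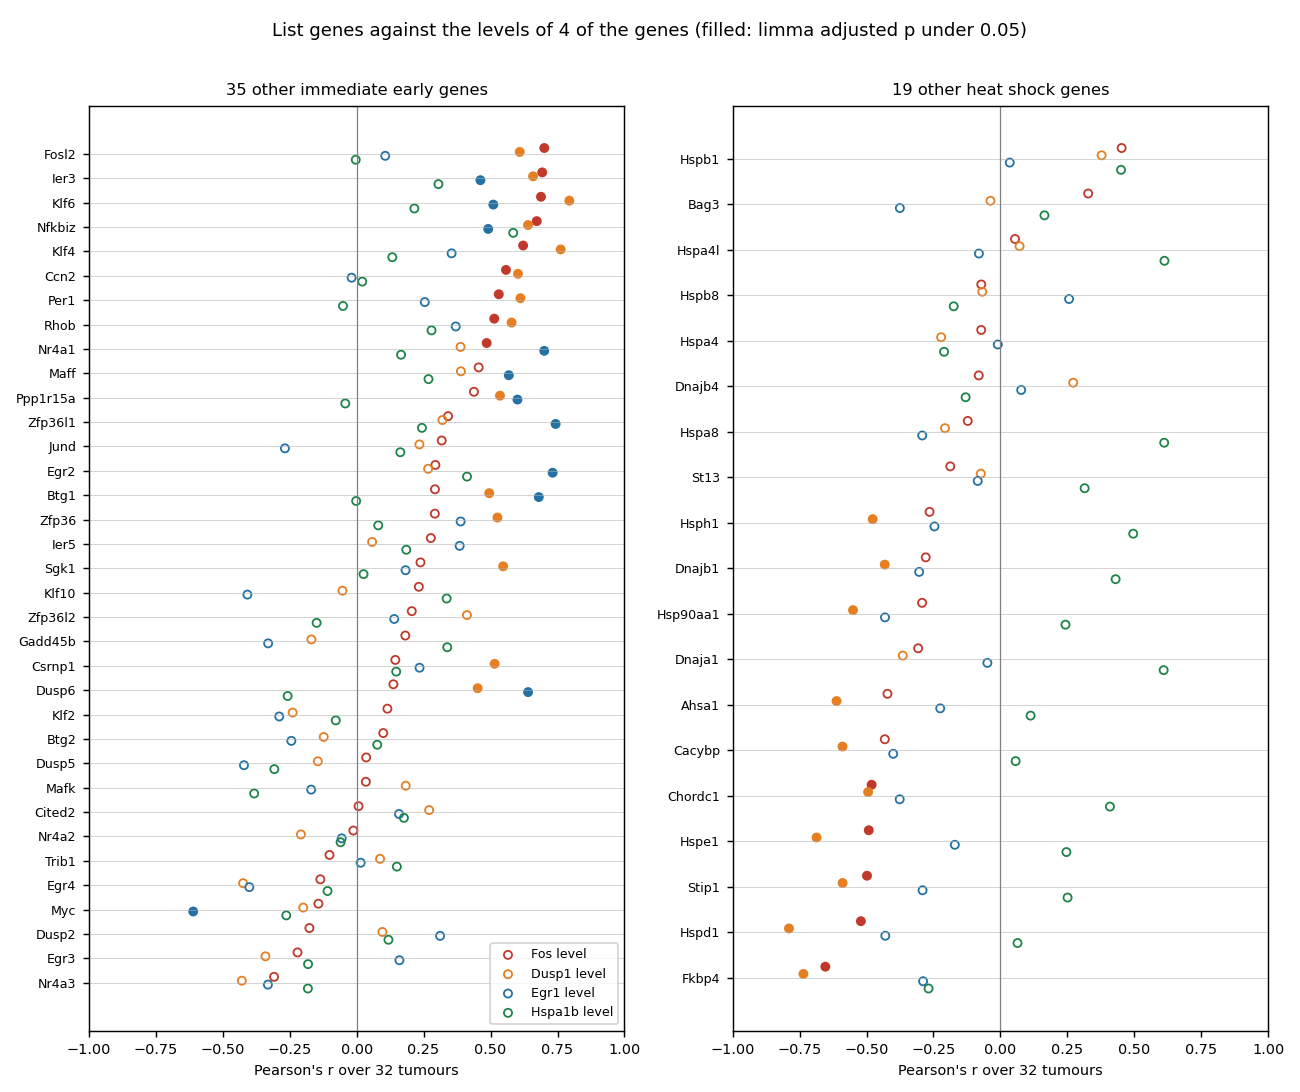
Pearson's r over 32 tumours (horizontal axis) of 35 other immediate early genes (left) and 19 other heat shock genes (right) with the levels of Fos, Dusp1, Egr1 and Hspa1b, filled where limma's adjusted p was under 0.05. On Dusp1 14 of the 35 rose and 10 of the 19 fell, and on Hspa1b none was called.

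Markers of other cell types moved with several of the genes. Each marker list was reduced to a score, the mean of its standardised genes, and each tested member was fitted to that score with limma. On the macrophage score (10 genes, among them C1qa and Csf1r) 4 of 7 members rose, against 9.51% of all genes tested. Dusp1 rose by 0.58 ± 0.12 log2 per SD of the score (SE, adjusted p 0.00160), Fos by 0.48 ± 0.10 (adjusted p 0.000968), Jun by 0.46 ± 0.08 (adjusted p 0.000163) and Junb by 0.20 ± 0.06 (adjusted p 0.0150). The mean level of the macrophage list ran from 8.24 through 9.31 to 11.7, and tumour 30 was highest. Without tumour 30 only Jun passed, and Fos (adjusted p 0.124), Dusp1 (0.190) and Junb (0.242) did not. Junb also missed it without tumour 24 (0.0696). In the 21 tumours without salivary transcripts Jun alone passed (Fos 0.279, Dusp1 0.149, Junb 0.0918), and in the 11 with them 2 of 7 did. Atf3 also followed this score when dim genes were included (0.31 ± 0.06, adjusted p 0.000427).

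On the stroma score (10 genes, mostly collagens and matrix proteins) 2 of 7 rose, against 5.68% of all genes: Fos by 0.47 ± 0.10 and Jun by 0.42 ± 0.09 (SE, limma adjusted p 0.00252 and 0.00147). On the endothelial score 3 of 7 rose, against 6.79%, namely Fos (0.44 ± 0.10, adjusted p 0.00466), Dusp1 (0.56 ± 0.13, adjusted p 0.00329) and Jun (0.34 ± 0.10, adjusted p 0.0214). Tumour 30 had the highest endothelial score and the second highest stroma score, and without it none of the 3 passed on the endothelial score (adjusted p 0.0854 to 0.136), while on the stroma score Fos missed (0.0691) and Jun was left. Jun also missed on the endothelial score without tumour 25 (0.105). In the 21 tumours without salivary transcripts 0 of 7 passed on either score, with adjusted p of 0.680 (Fos) and 0.434 (Jun) on the stroma score and 0.783 (Fos), 0.145 (Dusp1) and 0.912 (Jun) on the endothelial score, and in the 11 with them 2 of 7 passed on each.

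On the T cell score 3 of 7 members rose, against 10.5% of all genes: Egr1 by 0.77 ± 0.18 (SE, limma adjusted p 0.00231), Junb by 0.25 ± 0.05 (adjusted p 0.000357) and Hspa1b by 0.44 ± 0.16 (adjusted p 0.0432). The mean level of the 6 tested T cell genes ran from 5.84 through 6.38 to 9.90, highest in tumour 24 and next in tumour 2 (9.29), 2 of the 3 tumours above the Junb gap. Tumour 30 was at 6.39, and without it Fos (adjusted p 0.00275), Dusp1 (0.0205) and Jun (0.0493) passed as well. The Hspa1b call was lost in 8 of the 32 fits that left out a tumour (1, 2, 7, 11, 14, 24, 27 or 29), with adjusted p of 0.0516 to 0.282, the highest without tumour 24. It was also lost without the filter on dim genes (0.0539) and with the mean of all probe sets (0.0674). In the 21 tumours without salivary transcripts 5 of 7 passed, with Fos (0.00257), Dusp1 (0.00301) and Jun (0.0247) added and Hspa1b lost (0.0609), and in the 11 with them 0 of 7 did. Without tumours 2, 24 and 30 Egr1 (0.0550) and Hspa1b (0.681) missed.

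On the B lineage score 1 of 7 fell, Junb (-0.25 ± 0.05, limma adjusted p 0.00429), against 3.49% of all genes, and tumour 24 had the lowest B lineage mean, 9.58. The tumours above the Junb gap, 24, 2 and 30, ranked 32, 31 and 30 of 32 on this score. The Junb slope therefore includes the contrast of these tumours with the rest, and it does not show a graded relation among the other 29. The mean of the T cell, macrophage, neutrophil, stroma and endothelial scores was also used as a covariate in limma. With it the 7 member pairs called became 0, and the 18 calls of members on scores became 3. Beyond this fit, whether these cell types account for the members' values was not tested.

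On the proliferation score, built from 13 cell cycle genes such as Mki67, 5 of 7 fell, against 12.1% of all genes. Egr1 fell by 0.72 ± 0.19 log2 per SD of the score (SE, limma adjusted p 0.00399), Dusp1 by 0.65 ± 0.11 (adjusted p 7.9e-05), Fos by 0.43 ± 0.11 (adjusted p 0.00243), Jun by 0.31 ± 0.10 (adjusted p 0.0192) and Junb by 0.26 ± 0.05 (adjusted p 0.000160). Ier2 and Hspa1b did not pass (adjusted p 0.270 and 0.717). With dim genes included, Fosb also fell (-0.17 ± 0.05, adjusted p 0.0258), and Atf3 and Hspa1a did not pass (0.484 and 0.483). Tumour 30 had the lowest proliferation mean (10.18, against a median of 10.98), and without it Fos and Jun no longer passed (adjusted p 0.160 and 0.148), nor did Jun without tumour 24 (0.0916). The tumours above the Junb gap, 30, 24 and 2, ranked 32, 31 and 30 of 32 on this score. The Junb slope therefore includes the contrast of these tumours with the rest, and it does not show a graded relation among the other 29. Among the 21 tumours without salivary transcripts only Egr1 and Junb passed (Fos 0.0805, Dusp1 0.0788, Jun 0.149), and in the 11 with them 1 of 7 did. The neutrophil score, the fat score and the difference between 3′ and 5′ control probe sets, a measure of RNA integrity, called 0 of 7 members, against 0.0535%, 0.579% and 1.16% of all genes in either direction, and 0 of 7 had an unadjusted p under 0.05.

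**Figure D5:**
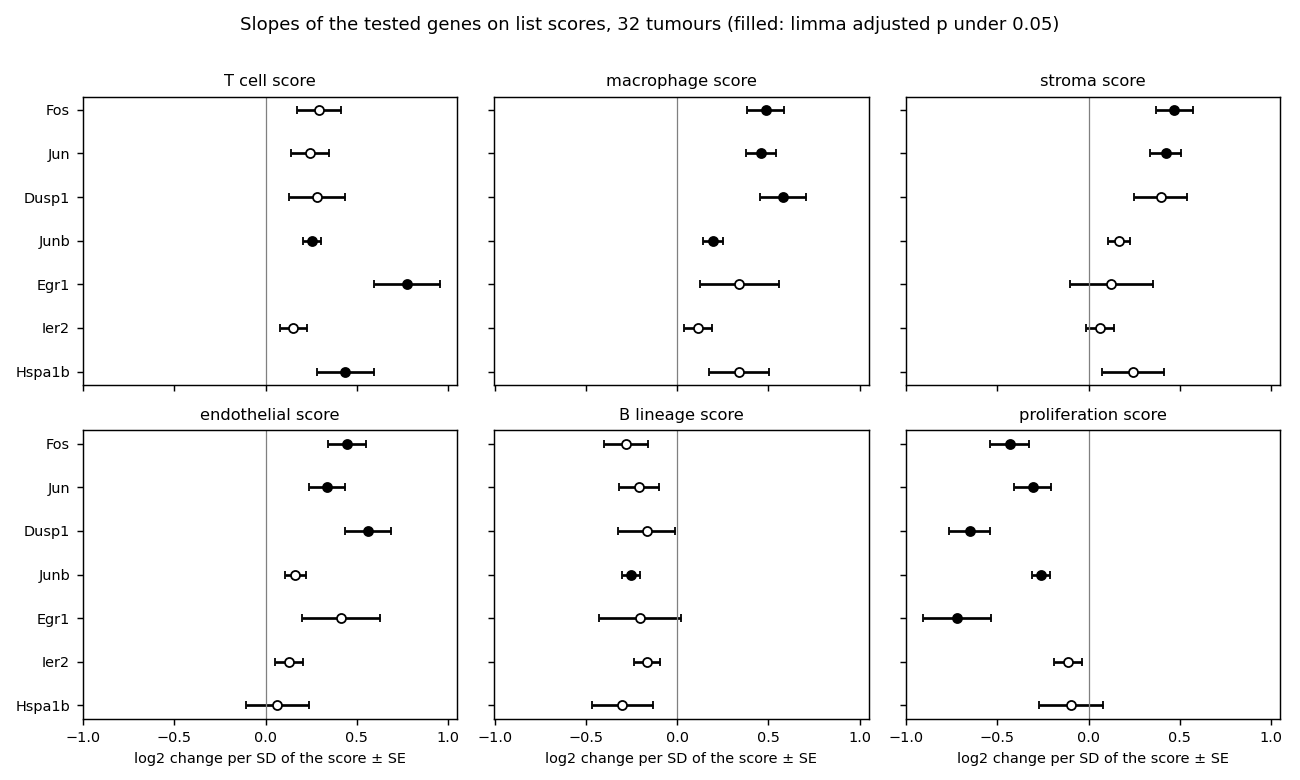
Change in log2 level per SD of each list score, with SE (horizontal axis), for the 7 tested genes over 32 tumours, filled where limma's adjusted p was under 0.05. Fos, Jun and Dusp1 rise on the macrophage score by 0.46 to 0.58, Egr1 rises by 0.77 on the T cell score, and 5 genes fall on the proliferation score.

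For each member the 5 other genes with the highest r among those passing on its level were listed as most alike over the 32 tumours. Egr1 had the closest match of any member: Nab2 with r = 0.907 and rho = 0.828 (limma adjusted p 2.1e-09), and r stayed at 0.902 without tumours 2, 24 and 30 and at 0.915 in the 21 tumours without salivary transcripts. Cd4 (0.853), Dsc3 (0.850), Bmp2k (0.842) and Rtn1 (0.834) followed. For Dusp1 they were Mir22hg (r = 0.833), Fgfr1 (0.831), Cebpd (0.810), Pttg1ip (0.809) and Arhgap31 (0.804). Cebpd alone among these was as close without tumour 30 (0.814), where Mir22hg was at 0.638 and Fgfr1 at 0.678.

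For Fos the most alike were Slc25a24 (r = 0.786), Fgfr1 (0.758), Mir22hg (0.752), Rras (0.747) and Ltbr (0.744), and without tumour 30 these were 0.714, 0.547, 0.483, 0.702 and 0.542. For Jun they were Cmtm3 (0.855), Hip1 (0.834), Fzd1 (0.832), Rab5c (0.831) and Cttnbp2nl (0.827), all still at 0.687 or above without tumours 2, 24 and 30. For Junb they were Sidt2, Stat3, Socs3, Arrdc4 and Hcst, whose r within the 29 tumours below the gap was 0.671, 0.497, 0.552, 0.435 and 0.687. For Ier2 they were Pmaip1 (0.761), Sntb2 (0.754), Reep3 (0.739), Emb (0.738) and Zfp36l1 (0.691), and tumour 29 was lowest for every one of these 5 as it was for Ier2.

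For the dim genes, Atf3 was most like Rab7b (r = 0.831), Metrnl (0.797), Lgals3 (0.788), Fcer1g (0.759) and Ccl7 (0.754), all at 0.621 or above without tumours 2, 24 and 30. Fosb was most like Ramp3 (0.850), Tnfrsf9 (0.808), Gzmm (0.744), Tmem131 (0.738) and S1pr2 (0.714), each of which was highest in tumour 2. Without tumours 2, 24 and 30 Gzmm was at 0.532, and the others were at 0.00361 (Ramp3), 0.116 (Tnfrsf9), 0.176 (Tmem131) and 0.274 (S1pr2). No gene outside the 10 passed for Hspa1a or Hspa1b.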

How the data were processed

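The authors' deposited values were log2 expression levels per probe set, normalised by RMA, and the submitters' processing notes also list the package affy, with no version for either. No scanner files were analysed here, so depth is given only by the number of arrays (32). Of 45101 probe sets, 34958 had 1 symbol, 932 several and 9211 none in the platform annotation. Each gene was read from its probe set with the highest mean, and genes with a mean of at least 5.78, the median over probe sets, were tested (11228, or 11227 on a tested member's own level). Genes were fitted to a member's level or a list score, scaled to an SD of 1, with limma 3.58.1 (lmFit, eBayes) in R 4.3.3, with Benjamini-Hochberg adjustment and a threshold of 0.05. Single pairs were tested two-sided with 100000 permutations (numpy 2.4.6, scipy 1.17.1). A gap of at least 25% of the range with 3 or more tumours on each side marked separate sets. In data simulated on the Fos, Hspa1b and Egr1 levels over 11228 genes, a slope of 1 SD was recovered for 96%, 94% and 94% of changed genes and a slope of 0.5 SD for 20%, 17% and 16%.

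The members and lists were chosen with earlier results of these data known. Genes named were the members, the 5 most alike passing genes per member, and up to 4 list genes per direction on Fos or Hspa1b; list genes named beyond these, on other levels or without single tumours, were chosen after their values were seen. Alternatives covered probe set choice, filter, normalisation, ranks, covariates and tumours left out; fits without tumours 2, 24 and 30, on the salivary tumours alone, and list counts with tumours left out were added after seeing the data.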

Additional observations from a re-analysis of the deposited data

How the results depend on the processing

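Values that changed follow, with the cause not tested except where fewer genes or tumours were fitted. Of the 7 member pairs called, 1 was left with the filter at the 75th percentile (where only 3 pairs could be tested), 3 with ranks of the axis, 0 with the mean marker score as a covariate, 1 without the 2 farthest tumours, 1 without and 1 with only the salivary tumours, and 2 without tumours 2, 24 and 30; leaving out each tumour gave 3 (without 30) to 8 (without 17). The 1601 genes called with Fos became 954, 303, 0, 0, 0, 399 and 1 under the same settings, and 421 (without 30) to 2148 (without 18) with 1 tumour left out. Those called with Hspa1b, 0 at first, were 2 without the filter, 7 at the 75th percentile, 1 after quantile normalisation, 7 with ranks, 8 with the 3′ minus 5′ covariate, 5 with the marker covariate and 7 without the 2 farthest, and 0 to 512 (without 17) with 1 left out. The 18 calls of members on scores became 8 at the 75th percentile, 3 with the marker covariate, 4 without the 2 farthest, 9 without and 7 with only the salivary tumours, 7 without tumours 2, 24 and 30, and 12 (without 30) to 22 (without 25) with 1 left out. The median SD of 0.740 was 0.554 without the salivary tumours, 0.512 from the median absolute deviation, and 0.604 (without 30) to 0.753 (without 19) with 1 left out. Directions turned for Junb on the macrophage score without tumours 2, 24 and 30 (r -0.0347, adjusted p 0.968) and for Jun on the endothelial score with the marker covariate (r -0.0804, adjusted p 0.881), both far from the threshold. The mean of all probe sets and a shift by 9 reference genes kept all 4 counts within 1.5 times of these values. Limits: 32 arrays of 1 group, no signal over background to judge dim probe sets, no label for whether a tumour's RNA came from frozen tissue or dissociated cells (its part in these genes was not tested), and single tumours (17, 30) that decide several calls. No paired analysis was possible because the labels give 1 group.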
